A study of Mus musculus with 12 samples.

Results

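The oxidative phosphorylation genes described here are nuclear genes for subunits of the 5 respiratory complexes of mitochondria, together with named assembly factors of complexes I and II. They were taken by symbol: every gene whose symbol begins with Nduf, Uqcr, Cox4 to Cox8 or Atp5, or with Sdh followed by a, b, c or d, apart from Cox6b2, that had a probe set annotated to that gene alone. The rule found 90 of the 17097 genes on the array, and 85 of the 90 were among the 10258 genes bright enough to be tested. Complex I gave 6 core subunits, 27 accessory subunits and 7 assembly factors. Complex II gave 4 subunits and 4 assembly factors, complex III 7 subunits, complex IV 10 subunits, and complex V, the ATP synthase, 17. A further 8 genes were tissue isoforms or relatives of complex IV subunits, of which 3 were tested. The accessory entry Ndufs5-ps carries the symbol of a pseudogene. Subunits encoded in mitochondrial DNA carry other symbols and were not analysed here. Nuclear subunit genes with other symbols, such as Cyc1 of complex III, are not members.

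RNA of whole livers from male mice was measured on 12 Affymetrix arrays, in 4 groups of 3. The groups were Pml knockout mice on the high-fat diet (60% of calories from fat), Pml knockout mice on the low-fat diet (10% of calories from fat), wild-type mice on the high-fat diet and wild-type mice on the low-fat diet. Feeding lasted 20 weeks in all groups, the livers were collected after an 8 h fast, and 3 extracts were analysed of 8 mice per group. Neither the strain, the age of the mice nor the construction of the Pml allele was given in the sources used here. The labels do not state that each extract came from a separate mouse, so the p-values measure the spread between extracts, which may be technical.

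The respiratory chain oxidises NADH at complex I and succinate at complex II, and passes the electrons over ubiquinone, complex III and cytochrome c to complex IV, where oxygen is reduced to water. Complexes I, III and IV pump protons across the inner membrane, and complex V uses the returning protons to make ATP. In hepatocytes the chain takes up the electrons released by fatty acid oxidation and supplies ATP for gluconeogenesis and urea synthesis. Many of the subunit genes are known to be transcribed under the control of the factors NRF1, GABP and the estrogen-related receptors (ERR), with the coactivators of the PGC-1 family.

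Pml, which encodes the scaffold protein of promyelocytic leukaemia nuclear bodies, was lower in every knockout liver (log2 signal 3.04 to 3.82) than in any wild-type liver (4.92 to 5.40). The array medians lay between 3.936 and 3.996 log2 units, and the arrays correlated with each other at 0.986 to 0.995. The mean signal of 6 hepatocyte marker genes was 12.6 to 12.9 in each of the 12 livers. Of the 6, 0 passed for diet over both genotypes, against 4.56% of all tested genes (limma, adjusted p below 0.05). In knockouts 1 of the 6 passed, as lower on the high-fat diet, against 3.03% of all tested genes. Hnf4a had group means of 10.935 in knockout high-fat and 11.321 in knockout low-fat livers, and 11.024 and 11.004 in wild types. Macrophage markers were lowest in knockout low-fat replicate 2 (4.81) and knockout high-fat replicate 3 (5.34), against 5.84 to 6.69 in the other livers.

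The promoters were searched because motifs for these factors are known from this gene family. RefSeq windows of 250 bases before to 50 bases after the transcription start (build GRCm38.p6) were found for 73 of the 90 genes. The NRF1 motif CGCATGCG, which reads the same on both strands, stood in the windows of 11 of these 73 genes (15.1%), against 2.07% of all 27025 genes with a window and 4.3% of the 8335 tested genes with a window. The GABP motif CCGGAAGT or its reverse ACTTCCGG was found for 4 genes (5.48%, against 4.31% of all genes and 9.06% of tested genes). The ERR motif CAAGGTCA or its reverse TGACCTTG was found for 3 genes (4.11%, against 1.76% and 1.43%). Among these genes no match of a motif overlapped a match of another motif. The stretches shown here are examples from each of the 5 complexes, with the motif in capitals, and the bases upstream of Ndufb3 are shown because it was the single gene of the family to pass the test for diet.
Ndufa8, NRF1 motif, chr2:36049329-36049358, minus strand: gtcgctggagaCGCATGCGcagatggtacc
Ndufaf4, NRF1 motif, chr4:24897960-24897989, plus strand: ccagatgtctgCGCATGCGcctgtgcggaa
Uqcr11, NRF1 motif, chr10:80406808-80406837, minus strand: gatcgccttcaCGCATGCGctatacgtctg
Cox6a1, NRF1 motif, chr5:115349101-115349130, minus strand: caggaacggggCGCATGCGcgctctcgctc
Atp5g2, NRF1 motif, chr15:102671070-102671099, minus strand: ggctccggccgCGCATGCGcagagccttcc
Atp5k, NRF1 motif, chr5:108434430-108434459, minus strand: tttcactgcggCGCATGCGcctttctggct
Sdhd, ERR motif, chr9:50603800-50603824, minus strand: gggttgtagagTGACCTTGagccct
Atp5g3, ERR motif, chr2:73911360-73911389, minus strand: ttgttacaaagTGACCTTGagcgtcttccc
Atp5l, ERR motif, chr9:44920737-44920766, minus strand: gaggggcagccTGACCTTGgaaatggggaa
Ndufb3, upstream, chr1:58586147-58586396, plus strand: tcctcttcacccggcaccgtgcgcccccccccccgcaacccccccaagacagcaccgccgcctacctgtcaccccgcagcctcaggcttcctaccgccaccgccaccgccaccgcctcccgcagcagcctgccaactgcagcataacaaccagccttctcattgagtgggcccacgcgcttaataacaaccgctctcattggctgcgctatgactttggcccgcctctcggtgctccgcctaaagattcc

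None of the 3 motifs was found in the window of Ndufb3, which says only that these letters are not there. Of the 11 genes with an NRF1 motif, 0 passed the limma test for diet. Among all 85 tested genes of the family 1.18% passed, and among all tested genes 4.56%. The log2 changes of the 11 genes on the high-fat diet lay between -0.16 (Ndufa8) and 0.03 (Atp5k). A match is a description of the letters and does not show that a factor bound there.

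The first question was how the oxidative phosphorylation genes responded to the high-fat diet. Across both genotypes 1 of the 85 tested genes passed, the complex I accessory subunit gene Ndufb3, which rose 1.19-fold. That is 1.18% of the family, against a background of 4.56% of all 10258 genes (468 genes, limma, adjusted p below 0.05). The median log2 change of the 85 genes was -0.01, with 37 higher and 48 lower on the high-fat diet, and the median of all tested genes was 0.00, with 48.8% higher. The changes of the 85 genes ran from -0.18 (Sdhd) to 0.28 (Ndufaf1). The 95% confidence interval of the change lay wholly within 1.2-fold in either direction for 77 of the 85 genes (90.6%), against 38.9% of all tested genes, and within 1.5-fold for all 85, against 90.9%.

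At an unadjusted p below 0.05, 8 of the 85 genes were counted (9.41%), 5 higher and 3 lower on the high-fat diet, against 19.7% of all tested genes. The 6 high-fat livers and the 6 low-fat livers did not overlap in 3 of the 85 genes (3.53%), Ndufa7, Ndufb3 and Ndufs1, against 3.27% of all tested genes. The probe sets of the family were brighter than most, with a median signal of 10.8 against 6.73 over all tested genes, and varied less within a group, with a median SD of 0.07 against 0.15. The part of the signal level in the narrow intervals was not tested. In whole liver, fewer cells of a type and less RNA per cell cannot be told apart.

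**Figure D1:**
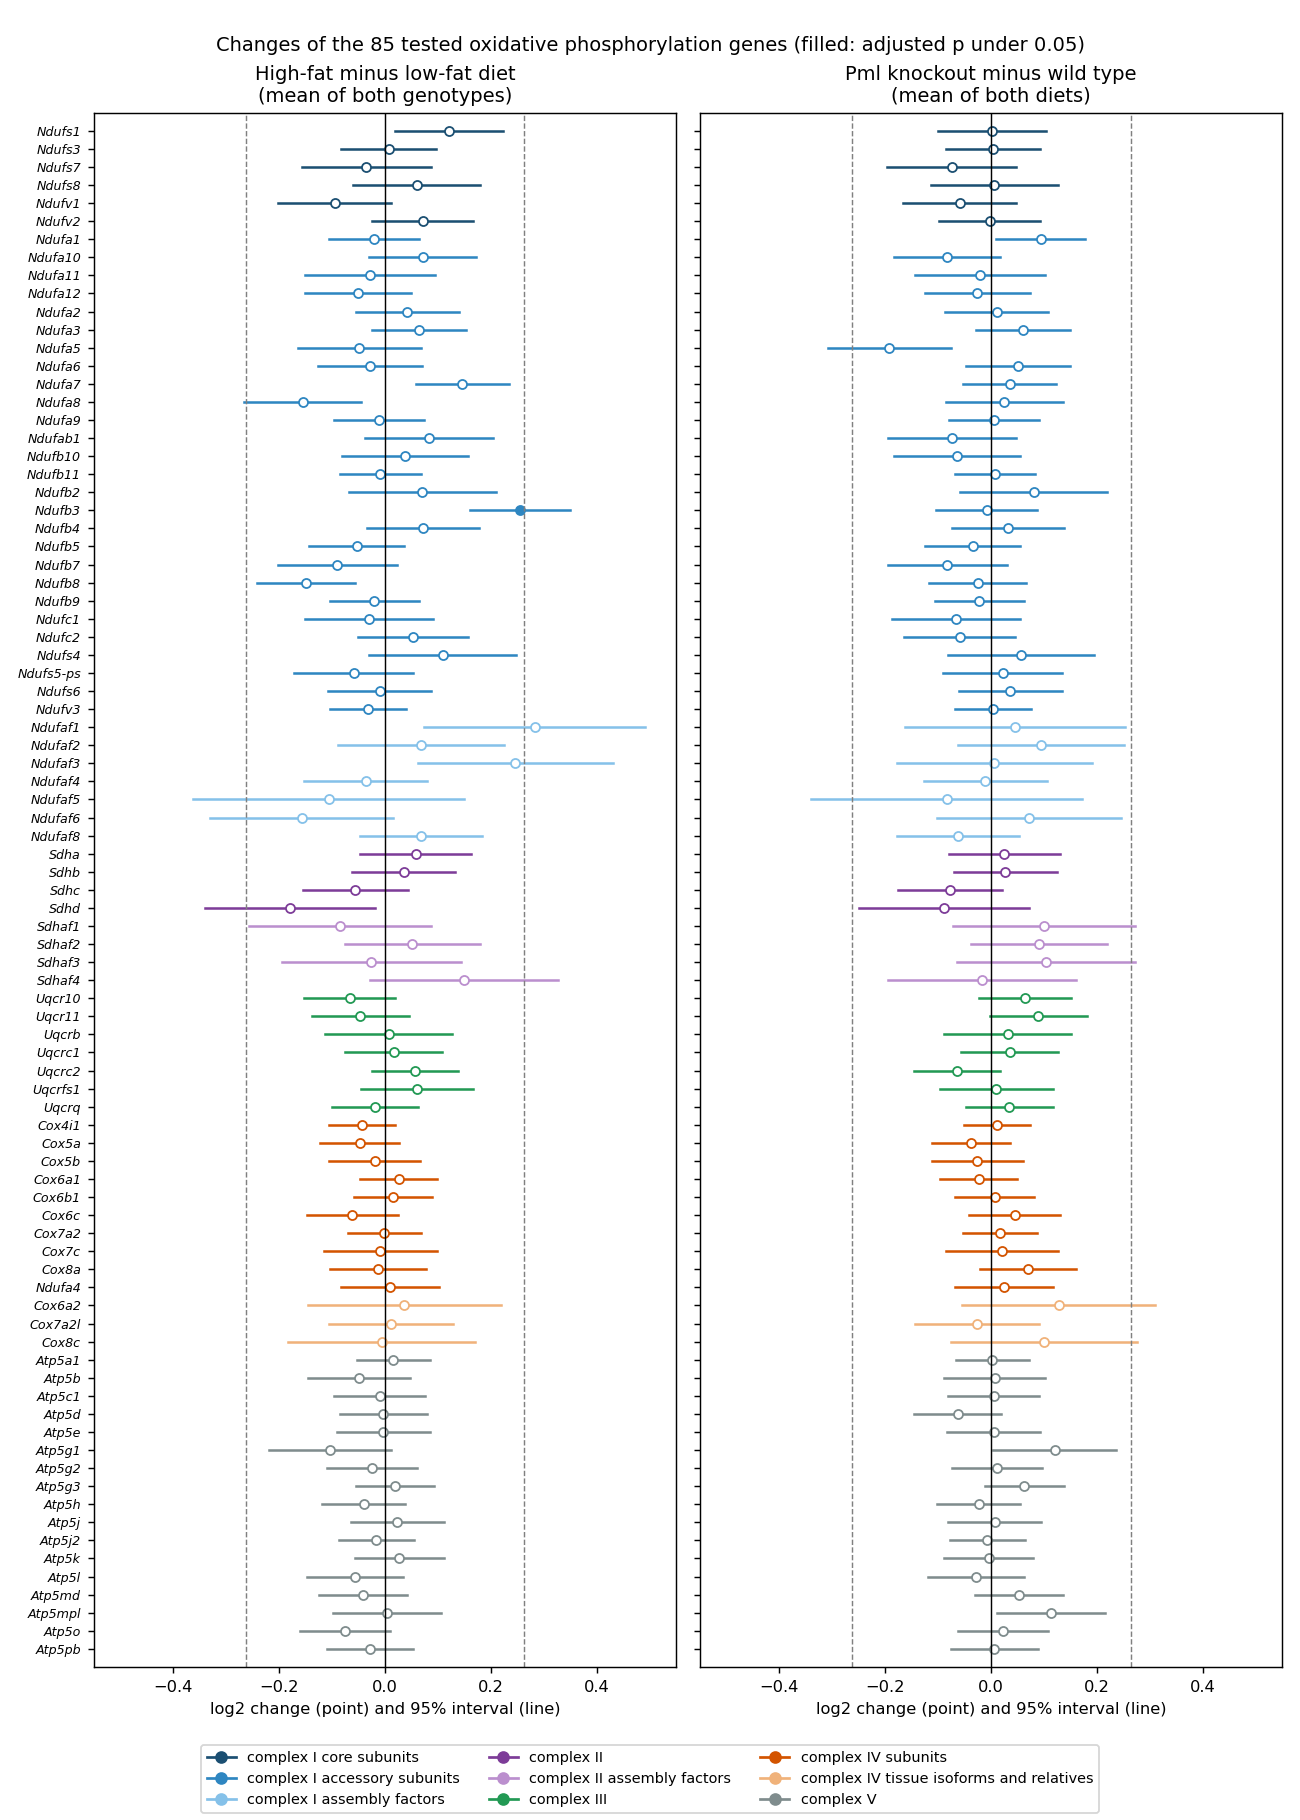
Log2 change (point) and 95% confidence interval (line) of each of the 85 tested genes, coloured by complex, for high-fat minus low-fat diet on the left and Pml knockout minus wild type on the right, with dashed lines at a 1.2-fold difference. The filled point, Ndufb3 on the left, is the only gene with an adjusted p below 0.05, and 77 intervals on the left and 79 on the right stay between the dashed lines.

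Ndufb3 encodes a small accessory subunit in the membrane arm of complex I. Its log2 signal was 9.93, 9.82 and 9.91 in knockout high-fat livers, against 9.63, 9.62 and 9.60 in knockout low-fat livers. In wild-type livers it was 9.89, 9.86 and 9.89 on the high-fat diet, against 9.68, 9.68 and 9.56 on the low-fat diet. Each of the 6 high-fat livers stood above each of the 6 low-fat livers, and the change of 0.26 (SE 0.0435, 95% interval 0.16 to 0.35) had an adjusted p of 0.0067. The log2 change was 0.27 in knockout livers (adjusted p = 0.0381) and 0.24 in wild-type livers (adjusted p = 0.169), and the difference between the genotypes was 0.02. Macrophage markers were higher on the high-fat diet in 10 of 10 genes, against 48.8% of all tested genes. Their median change was 0.30 with a median SE of 0.34, and 0 passed, against 4.56% of all tested genes. In knockouts alone 7 of 10 were higher. Without the 2 livers in which these markers were lowest the change of Ndufb3 was 0.25 (adjusted p = 0.037). Endothelial markers were lower on the high-fat diet in 10 of 11 genes, against 51.2% of all tested genes. Their median was -0.26 over both genotypes and -0.39 in knockouts, and 0 passed. In wild types 7 of the 11 endothelial markers were lower, with a median of -0.10. Their mean signal was 5.85 in knockout high-fat replicates 2 and 3 and 5.95 in knockout low-fat replicate 2, against 6.41 to 6.85 in the other livers. Without these 3 livers, an alternative chosen after seeing the data that leaves a single knockout high-fat liver, taken to vary like the other groups, the change of Ndufb3 was 0.28 with an adjusted p of 0.0816, and 0 of the 85 genes passed. In that fit 62 of all tested genes passed, against 468 with all livers. Ndufb3 had 1 probe set, so no second probe set bears on the value.

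Ndufa7 and Ndufs1, named after their values were seen because their diet groups did not overlap, did not pass the adjusted threshold. Ndufa7 encodes an accessory subunit of the matrix arm, and its signal was 10.97, 10.82 and 10.84 in knockout high-fat livers and 10.81, 10.86 and 10.85 in wild-type high-fat livers. The low-fat livers had 10.72, 10.76 and 10.71 in knockouts and 10.76, 10.70 and 10.63 in wild types. The change was 0.15 (adjusted p = 0.0628), and each of its 5 probe sets was higher on the high-fat diet, by 0.10 to 0.21. Ndufs1 encodes the large iron-sulfur subunit of the NADH-oxidising end of complex I, and its mean was 10.01 ± 0.04 in knockout high-fat livers against 9.88 ± 0.05 in knockout low-fat livers (SD, n = 3 each). In wild types it was 10.00 ± 0.08 on the high-fat diet and 9.88 ± 0.08 on the low-fat diet, a change over both genotypes of 0.12 (adjusted p = 0.171).

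Other complex I subunits lay on the opposite side. Ndufb8, a membrane arm subunit often used as a protein marker of assembled complex I, had 10.57, 10.56 and 10.56 in knockout high-fat livers, against 10.76, 10.69 and 10.66 in knockout low-fat livers. In wild types it had 10.54, 10.53 and 10.68 on the high-fat diet, against 10.73, 10.68 and 10.80 on the low-fat diet. The change was -0.15 (adjusted p = 0.0669), the diet groups overlapped only through 1 wild-type high-fat liver, and the dimmer second probe set changed by -0.05. Ndufa8, an accessory subunit facing the intermembrane space, changed by -0.16 (adjusted p = 0.106). Its signal was 10.31, 10.18 and 10.25 in knockout high-fat livers against 10.52, 10.39 and 10.41 in knockout low-fat livers, and 10.25, 10.27 and 10.26 in wild-type high-fat livers against 10.48, 10.42 and 10.23 in wild-type low-fat livers. The wild-type low-fat value of 10.23 fell among the high-fat livers, and without that replicate the change was -0.19 with an adjusted p of 0.0407.

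**Figure D2:**
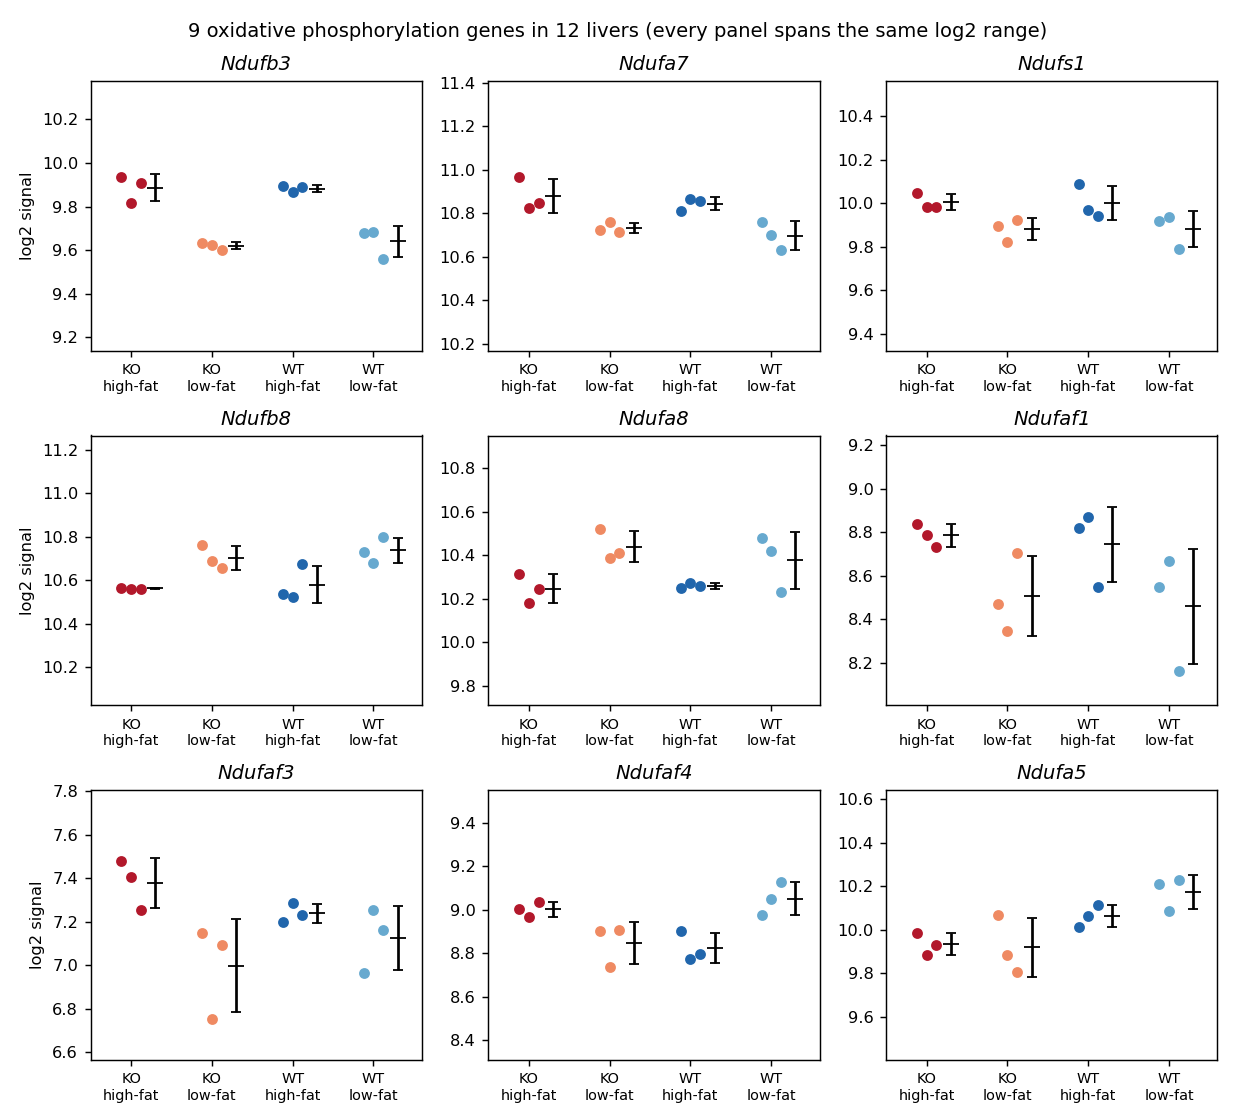
Log2 signal of 9 oxidative phosphorylation genes in each of the 12 livers (points), with the mean and SD of each group of 3 beside them and the same log2 range in each panel. Ndufb3 is higher in all 6 high-fat livers, Ndufb8 lies lower in most high-fat livers, and Ndufa5 lies lower in most knockout livers.

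Taken by role, the 6 core subunits of complex I had a median log2 change of 0.03 on the high-fat diet, with 4 higher and 2 lower, and the 27 accessory subunits -0.01, with 11 higher and 16 lower. Of the core subunits Ndufv1, which carries the NADH-binding flavin, had a change of -0.09 (adjusted p = 0.318), and its dimmer second probe set gave 0.03. Its partner Ndufv2 had a change of 0.07 (adjusted p = 0.408). Ndufb11, the accessory subunit with the brightest probe set, stayed between 11.69 and 11.82 in all 12 livers.

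The 7 assembly factors of complex I, which build the complex without being part of it, had the largest median size of change of any role. It was 0.11 log2 units, against 0.09 over all tested genes. The median SE of their changes was 0.080, against 0.045 for the 85 genes and 0.090 for all tested genes. The median change of the 7 was 0.07, and 0 of 7 passed, against 4.56% of all tested genes. The intervals of 3 of 7 lay within 1.2-fold (42.9%, against 38.9% of all tested genes). Ndufaf1, a factor for the membrane arm, had 8.84, 8.79 and 8.73 in knockout high-fat livers against 8.47, 8.35 and 8.71 in knockout low-fat livers. In wild types it had 8.82, 8.87 and 8.55 on the high-fat diet against 8.55, 8.67 and 8.16 on the low-fat diet. Its change of 0.28 was the highest of the family (95% interval 0.07 to 0.49, adjusted p = 0.117), and over both genotypes the diet groups overlapped only through the wild-type high-fat liver at 8.55. Ndufaf3, which acts early in the assembly of the matrix arm together with Ndufaf4, changed by 0.25 (adjusted p = 0.123). Its values were 7.48, 7.41 and 7.25 in knockout high-fat livers against 7.15, 6.75 and 7.09 in knockout low-fat livers, with no overlap. Wild-type livers had 7.20, 7.29 and 7.23 on the high-fat diet and 6.97, 7.25 and 7.16 on the low-fat diet, which overlapped. Ndufaf6 changed by -0.16 (adjusted p = 0.303), and its log2 difference was -0.25 in knockout livers, where knockout low-fat replicate 2 (7.84) was as low as the high-fat livers (7.78 to 7.92). Ndufaf5, an assembly factor that in human cells modifies a core subunit, was dim (4.99 to 5.68) and had the widest interval, -0.36 to 0.15.

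Complex II, the succinate dehydrogenase that also belongs to the tricarboxylic acid cycle, had changes of 0.06 for the flavoprotein Sdha, 0.04 for the iron-sulfur subunit Sdhb, -0.06 for the anchor subunit Sdhc and -0.18 for the anchor subunit Sdhd. None passed, against 4.56% of all tested genes, and 1 of the 4 had an unadjusted p below 0.05, against 19.7%. Sdhd had 7.23, 7.16 and 7.20 in knockout high-fat livers against 7.35, 7.34 and 7.11 in knockout low-fat livers, and 7.16, 7.08 and 7.29 in wild-type high-fat livers against 7.50, 7.31 and 7.59 in wild-type low-fat livers. The groups were apart in wild types (-0.29, adjusted p = 0.418) and overlapped in knockouts (-0.07). Among the 4 assembly factors of complex II, 0 passed, against 4.56% of all tested genes, and their changes ran from -0.09 (Sdhaf1) to 0.15 (Sdhaf4).

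Complexes III, IV and V showed small differences. The 7 genes of complex III changed by -0.07 to 0.06, the 10 of complex IV by -0.06 to 0.03 and the 17 of complex V by -0.10 to 0.03, and the 95% interval of each of these 34 genes lay within 1.2-fold. None of the 34 passed for diet, against 4.56% of all tested genes. None had an unadjusted p below 0.05, against 19.7% of all tested genes. The complex III gene with the brightest probe set, Uqcrq, had a mean of 11.92 ± 0.03 in knockout high-fat livers and 11.97 ± 0.09 in knockout low-fat livers, and 11.92 ± 0.03 in wild-type high-fat livers and 11.90 ± 0.06 in wild-type low-fat livers (SD, n = 3 each). Cox6a1, the subunit form used outside heart and skeletal muscle, had 12.63 ± 0.06 and 12.62 ± 0.05 in knockout high-fat and low-fat livers, and 12.67 ± 0.03 and 12.62 ± 0.06 in wild-type high-fat and low-fat livers. Atp5a1, a catalytic-head subunit of the ATP synthase, had the smallest range of the 85 tested genes over the 12 livers, 0.12 log2 units, and Ndufaf3 the widest, 0.72. Atp5g1 and Atp5g3 encode the same mature subunit of the membrane ring and changed by -0.10 (95% interval -0.22 to 0.01) and 0.02 (-0.06 to 0.09). In complex V 12 of 17 genes (70.6%) and in complex IV 7 of 10 (70%) were lower on the high-fat diet, against 51.2% of all tested genes. In knockouts 15 of 17 and 8 of 10 were lower, against 51.6% of all tested genes. In wild types 9 of 17 and 4 of 10 were lower, against 50.3%.

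Of the 8 tissue isoforms and relatives of complex IV subunits, Cox6a2, Cox7a2l and Cox8c were tested and Cox4i2, Cox7a1, Cox7b2, Cox8b and Ndufa4l2 lay under the filter on dim genes. Cox6a2 is the heart and skeletal muscle form, and its change was 0.04 over both genotypes and 0.19 in wild types (adjusted p = 0.706). Its mean signal of 4.94 was the lowest of the 85 tested genes, whose median was 10.8. The part of this low signal in its differences was not tested. Cox7a2l, which joins complexes III and IV in supercomplexes, changed by 0.01 (95% interval -0.11 to 0.13), and Cox8c, a testis form, by -0.01. The 5 dim genes had signals of 3.00 to 4.61, and none passed a limma fit over all 17097 genes without the filter. Cox7a1, a form of heart, muscle and brown fat, had 3.32, 3.83 and 3.89 in knockout high-fat livers against 4.61, 4.35 and 4.13 in knockout low-fat livers, a difference of -0.68 with an adjusted p of 0.0605. In wild types it had 4.10, 3.70 and 3.89 on the high-fat diet and 3.88, 4.01 and 3.97 on the low-fat diet. Skeletal muscle markers had mean signals of 3.85 to 4.11 in knockout high-fat livers, 4.01 to 4.196 in knockout low-fat livers, 3.89 to 4.05 in wild-type high-fat livers and 3.92 to 3.94 in wild-type low-fat livers, and their part in the values of Cox7a1 was not tested.

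The diet was next compared within each genotype. In knockout livers 1 of the 85 genes passed for diet, Ndufb3 (1.18%, against 3.03% of all tested genes), and 11 had an unadjusted p below 0.05 (12.9%, against 18.3%). The median change was -0.02, with 34 of 85 higher, and the median of all tested genes was -0.01. The 3 highest differences in knockout livers were 0.38 for Ndufaf3 (adjusted p = 0.110), 0.28 for Ndufaf1 (adjusted p = 0.301) and 0.27 for Ndufb3. The 3 lowest were -0.25 for Ndufaf6 (adjusted p = 0.253), -0.19 for Ndufa8 (adjusted p = 0.166) and -0.16 for Ndufv1 (adjusted p = 0.230). Without knockout low-fat replicate 1 the difference of Ndufv1 was -0.09, and its second probe set gave -0.02. Without knockout low-fat replicate 2 the difference of Ndufaf6 was -0.38. The call of Ndufb3 in knockout livers rested on all the libraries: it was kept when wild-type low-fat replicate 2 or 3 was left out, and lost when any other single library was, with adjusted p-values of 0.0504 to 0.114 and log2 changes of 0.24 to 0.30. Without the 2 livers with the lowest macrophage markers it was 0.26 with an adjusted p of 0.184, and without the 3 with the lowest endothelial markers 0.32 with an adjusted p of 0.341.

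In wild-type livers 0 of the 85 genes passed for diet (limma, against 0.175% of all tested genes, 18 genes), and 7 had an unadjusted p below 0.05 (8.24%, against 8.82%). The median change was 0.02, with 52 of 85 higher, and the median of all tested genes was 0.00. Leaving out replicate 3 of the wild-type low-fat group turned the median of the 85 genes to -0.0041, so its direction rested on single livers. The 3 highest differences were 0.29 for Ndufaf1, 0.24 for Ndufb3 and 0.19 for Cox6a2, and the 3 lowest -0.29 for Sdhd, -0.23 for Ndufaf4 and -0.16 for Ndufb8, with adjusted p-values of 0.169 to 0.706. Without wild-type low-fat replicate 3 the difference of Ndufaf1 was 0.14.

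The second question was whether loss of Pml changed these genes. Over both diets 0 of the 85 genes passed (limma, against 0.0195% of all tested genes, which are 2 genes), and 4 had an unadjusted p below 0.05 (4.71%, against 7.26%). The knockout and wild-type livers did not overlap in 0 of the 85 genes, against 0.263% of all tested genes. The median difference was 0.01, with 53 of 85 higher in knockouts, and the median of all tested genes was also 0.01. The differences ran from -0.19 to 0.13, and the 95% intervals of 79 of 85 genes (92.9%) lay within 1.2-fold, against 46.9% of all tested genes.

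Ndufa5, an accessory subunit of the matrix arm, stood lowest. It had 9.98, 9.88 and 9.93 in knockout high-fat livers against 10.01, 10.06 and 10.12 in wild-type high-fat livers, and 10.07, 9.88 and 9.81 in knockout low-fat livers against 10.21, 10.09 and 10.23 in wild-type low-fat livers. The groups were apart on each diet, and the difference over both diets was -0.19 (95% interval -0.31 to -0.08, adjusted p = 0.596). Its second probe set gave -0.03. At the other end, Cox6a2, the dimmest of the 85 tested genes (mean signal 4.94), differed by 0.13 (adjusted p = 0.781). Atp5g1 differed by 0.12 (adjusted p = 0.680) and Atp5mpl, a small membrane protein of the ATP synthase, by 0.11 (adjusted p = 0.674). Ndufa1, a small membrane arm subunit encoded on the X chromosome, differed by 0.09 (adjusted p = 0.674). Sdhd differed by -0.09 and Ndufaf5 by -0.08, and the value for Ndufaf5 was 0.05 without the 2 livers with the lowest macrophage markers and 0.04 without the 3 with the lowest endothelial markers. With each liver left out in turn it lay between -0.14 and -0.02.

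On the low-fat diet 0 of the 85 genes passed for genotype (limma, against 0.00975% of all tested genes, which is 1 gene), and 9 had an unadjusted p below 0.05 (10.6%, against 8.72%). The median difference was 0.04, with 55 of 85 higher in knockouts, against a median of 0.00 over all tested genes, and it was 0.00 without wild-type low-fat replicate 3. The 3 highest were 0.28 for Cox6a2, 0.23 for Sdhaf3, an assembly factor of complex II, and 0.17 for Ndufaf6, and the 3 lowest -0.25 for Ndufa5, -0.20 for Ndufaf4 and -0.20 for Sdhd. Several moved with a single liver: without knockout low-fat replicate 3 the differences were 0.15 for Sdhaf3, 0.09 for Ndufaf6 and -0.12 for Sdhd, and without knockout low-fat replicate 2 that of Ndufaf6 was 0.29. Leaving out replicate 3 of the wild-type group also gave 0.15 for Sdhaf3. Ndufa1 had 11.57, 11.54 and 11.57 in knockout low-fat livers against 11.35, 11.48 and 11.34 in wild-type low-fat livers, with no overlap (0.17, adjusted p = 0.475), and Ndufc2 differed by -0.18 (adjusted p = 0.503).

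On the high-fat diet 0 of the 85 genes passed for genotype (limma, against 0.00975% of all tested genes, which is 1 gene), and 2 had an unadjusted p below 0.05 (2.35%, against 4.46%). The median difference was -0.01, with 33 of 85 higher in knockouts, against 0.00 over all tested genes. The 3 highest were 0.18 for Ndufaf4, 0.15 for Sdhaf1 and 0.14 for Ndufaf3, and the 3 lowest -0.13 each for the core subunit Ndufs7, for Ndufa5 and for Atp5d, a subunit of the central stalk of the ATP synthase. Ndufb9, a membrane arm subunit of complex I, was the gene with the third lowest p and differed by -0.10. These named genes had adjusted p-values of 0.996. With a single liver left out the difference of Sdhaf1 lay between 0.08 (replicate 2 of the knockout or replicate 1 of the wild-type high-fat group) and 0.26 (replicate 1 of the knockout high-fat group), and it was -0.07 without the 3 livers with the lowest endothelial markers. That of Ndufaf3 was 0.09 without knockout high-fat replicate 1. The median of the family was 0.00 when replicate 2 of the knockout or replicate 1 of the wild-type high-fat group was left out, and 0.02 without the 3 livers with the lowest endothelial markers.

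The third question was whether the diet difference depended on genotype. Of the 85 genes 0 passed this test (limma, against 0% of all 10258 tested genes), and 3 had an unadjusted p below 0.05 (3.53%, against 5.7%). The median of the diet difference in knockouts minus that in wild types was -0.03, with 33 of 85 above 0, against a median of 0.00 over all tested genes, and it was 0.00 without wild-type low-fat replicate 3. Intervals were wider here: 37 of 85 lay within 1.2-fold and 80 within 1.5-fold. Ndufaf4 had the lowest p of the family (0.0038, adjusted p = 0.802). It had 9.003, 8.968 and 9.036 in knockout high-fat livers against 8.90, 8.74 and 8.91 in knockout low-fat livers, and 8.90, 8.77 and 8.79 in wild-type high-fat livers against 8.97, 9.05 and 9.13 in wild-type low-fat livers. High-fat livers thus stood above low-fat livers in knockouts (0.15) and below them in wild types (-0.23), a difference between the genotypes of 0.38 (SE 0.107). The second probe set of Ndufaf4 gave 0.22, made of 0.00 in knockouts and -0.21 in wild types. Opposite differences with no overlap on either side were counted between diets or between genotypes. They were found in 3 of the 85 genes (3.53%), against 0.897% of all tested genes. Of these Ndufaf4 was opposed for diet, while Ndufc2 and Ndufv3 were opposed for genotype and their wild-type diet groups overlapped. After Ndufaf4 the highest values were those of Ndufaf3 (0.27) and Ndufc2 (0.24), and the 3 lowest were Cox6a2 (-0.31), Sdhaf3 (-0.25) and Ndufaf6 (-0.19), with adjusted p-values of 0.827 to 0.917. Without knockout low-fat replicate 2 the value of Ndufaf3 was 0.15, and without knockout high-fat replicate 2 that of Cox6a2 was -0.21. With each liver left out in turn that of Ndufaf6 lay between -0.32 and -0.12.

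Mitochondrial genes outside the family were set beside it for the diet comparison, by their counts and medians alone. Genes counted as risen or fallen in these lists passed the limma test (adjusted p below 0.05), as did 4.56% of all tested genes. Of 14 genes of mitochondrial fatty acid oxidation 10 rose and 0 fell, with a median change of 0.27, and among them Eci1, an isomerase for unsaturated fatty acids, had 10.80, 11.01 and 10.92 in knockout high-fat livers against 10.18, 10.09 and 10.28 in knockout low-fat livers. In wild types Eci1 had 11.03, 10.95 and 10.68 on the high-fat diet against 10.24, 10.32 and 10.11 on the low-fat diet (change 0.70, adjusted p = 0.000166). The medium-chain dehydrogenase Acadm rose by 0.31 (adjusted p = 0.00107) and the hydroxyacyl dehydrogenase Hadh by 0.22 (adjusted p = 0.00258).

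Of 15 other genes of electron transport 2 rose, with a median change of 0.14. They were Etfdh, which hands electrons from fatty acid oxidation to ubiquinone (0.41, adjusted p = 0.00404), and Coq2, an enzyme of ubiquinone synthesis (0.26, adjusted p = 0.0423). The third gene named from this list, Etfa, a partner of Etfdh, changed by 0.17 (adjusted p = 0.0583). Cyc1, a complex III subunit that this list holds, changed by -0.06 (adjusted p = 0.501). Of 21 genes listed as assembly factors of complexes III, IV and V 1 rose, with a median of 0.09. It was Atpaf1, an assembly factor of the ATP synthase (0.29, adjusted p = 0.0404). The list also holds Atpif1, an inhibitor of the ATP synthase. The factor genes Cox18 and Coa6 of that list changed by 0.26 (adjusted p = 0.0851) and 0.32 (adjusted p = 0.0862).

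Of 11 genes of the tricarboxylic acid cycle 1 rose, Suclg1 (0.23, adjusted p = 0.0272), and Ogdh changed by -0.25 (adjusted p = 0.0559) and Dlst by 0.16 (adjusted p = 0.101). Of 72 mitochondrial ribosome genes 1 rose, Mrpl17 (0.31, adjusted p = 0.0113), with a median of 0.07. Without regard to the threshold 58 of 72 were higher (80.6%), against 48.8% of all tested genes. Of 11 genes of the outer membrane and protein import 0 rose and 1 fell, the import receptor Tomm20 (-0.22, adjusted p = 0.0193). For genotype over both diets 0 genes of these lists passed, against 0.0195% of all tested genes.

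Regulators of mitochondrial biogenesis bear on the promoter motifs. Of 12 such genes 1 passed for diet, against 4.56% of all tested genes. It was Esrrg, a nuclear receptor of the ERR family, which was higher on the high-fat diet. It had 5.32, 4.83 and 4.84 in knockout high-fat livers against 3.51, 3.51 and 3.55 in knockout low-fat livers, and 4.78, 4.64 and 5.72 in wild-type high-fat livers against 3.96, 3.85 and 5.30 in wild-type low-fat livers. The log2 change was 1.08 (adjusted p = 0.0277), but the knockout low-fat values lay below every array median, so its size is not a measured fold. The groups were apart in knockouts and overlapped in wild types through the low-fat liver at 5.30. The other tested ERR gene, Esrra, changed by -0.11 (adjusted p = 0.379), and the GABP genes Gabpa and Gabpb1 by 0.11 each (adjusted p = 0.595 and 0.587). The coactivator Ppargc1b changed by -0.38 (adjusted p = 0.0859) and Nrf1 by 0.02 (adjusted p = 0.959). Tfam, the factor that packages and transcribes mitochondrial DNA, changed by -0.02 (adjusted p = 0.911). Ppargc1a was also listed but was not among the genes analysed. The 3 oxidative phosphorylation genes whose windows hold the ERR motif, Atp5g3, Atp5l and Sdhd, changed by 0.02, -0.06 and -0.18. Of the 3, 0 passed, against 4.56% of all tested genes.

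**Figure D3:**
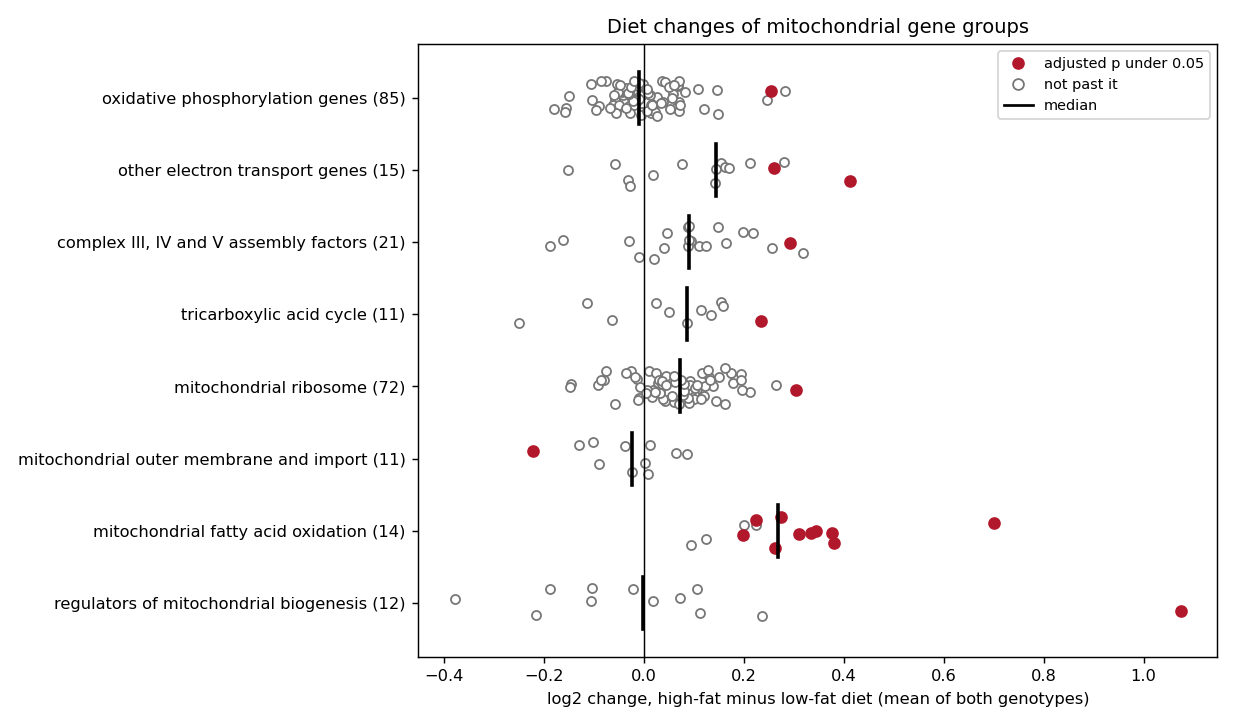
Log2 change on the high-fat diet, averaged over both genotypes, of each tested gene in 8 mitochondrial gene groups (points; red, adjusted p below 0.05), with the median of each group as a black bar and the number of genes in brackets. The oxidative phosphorylation genes lie around 0 with 1 red point, and 10 of the 14 fatty acid oxidation genes are red and above 0.

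Summed over the family, no group of livers stood apart. The mean deviation of the 85 genes from their 12-liver means was 0.00 ± 0.02 in knockout high-fat livers, 0.01 ± 0.04 in knockout low-fat livers, 0.00 ± 0.03 in wild-type high-fat livers and -0.01 ± 0.04 in wild-type low-fat livers (SD, n = 3 each). The lowest liver was wild-type low-fat replicate 3 (-0.05) and the highest knockout low-fat replicate 1 (0.05). The 14 fatty acid oxidation genes had 0.15 ± 0.06 in knockout high-fat livers against -0.16 ± 0.03 in knockout low-fat livers, and 0.14 ± 0.07 in wild-type high-fat livers against -0.13 ± 0.10 in wild-type low-fat livers, and every high-fat liver stood above every low-fat liver. In the 2 livers with the lowest macrophage markers, the deviation of the oxidative phosphorylation genes was -0.02 in knockout low-fat replicate 2 and 0.00 in knockout high-fat replicate 3. Markers of liver endothelium were lower in knockouts over both diets in 11 of 11 genes, against 47.8% of all tested genes. Their median was -0.32, and 0 passed, against 0.0195% of all tested genes. The median of the oxidative phosphorylation genes was 0.01, and it was also 0.01 without the 3 livers lowest in the endothelial markers.

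**Figure D4:**
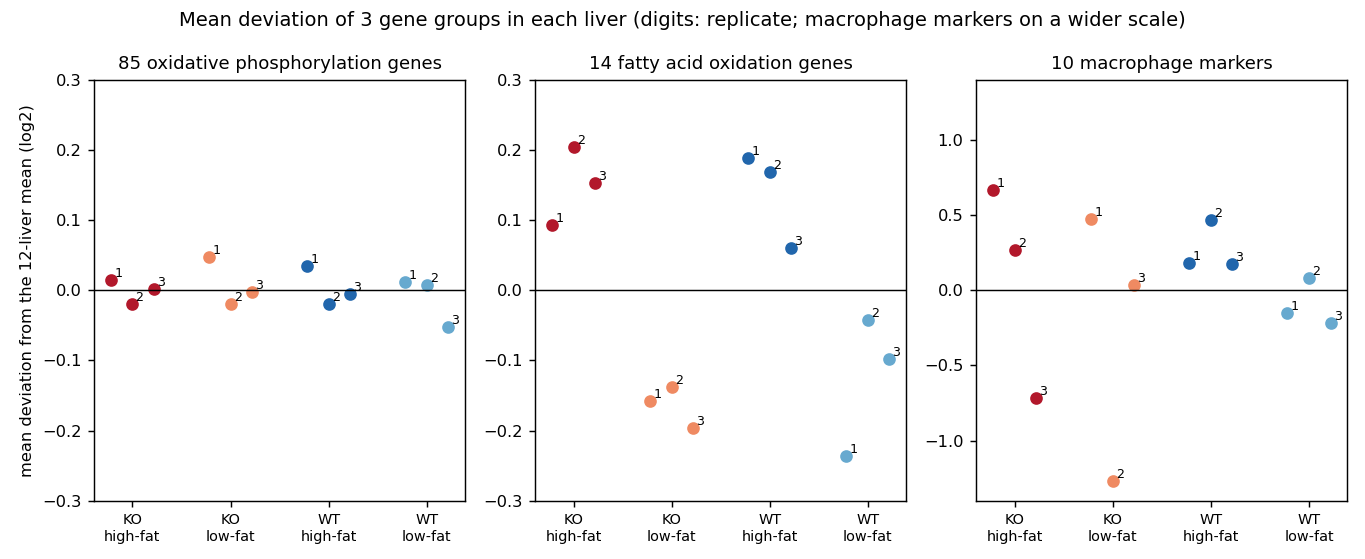
Mean deviation (log2) from the 12-liver mean of 85 oxidative phosphorylation genes, 14 fatty acid oxidation genes and 10 macrophage markers in each liver, with the replicate number beside each point and a wider scale for the macrophage markers. The oxidative phosphorylation genes stay between -0.05 and 0.05 in all 12 livers.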

How the data were processed

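The authors deposited 1 table of log2 signals, with 45141 probe sets and 12 arrays; per the submitters' processing notes it comes from RMA, with no version named. The labels name Trizol extraction and biotin labelling for perfect-match arrays. Control probe sets (104) and probe sets with several genes (551) or none (15588) were left out. The brightest probe set stood for a gene, and the dimmest 40% of 17097 genes were left out, which left 10258.

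Groups were compared in R 4.3.3 with limma 3.58.1, as 4 group means fitted to all arrays together (residual degrees of freedom: 8), allowing the variance to follow the signal, and p-values were adjusted by Benjamini-Hochberg over all genes of a comparison, not across the 7 comparisons. The fit was tested on simulated data with diet changes of 1.5-fold or larger, which does not cover the smaller changes of the tested members. The number of arrays limits the precision.

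The members and lists were chosen with earlier results of these data known. Named were every member past an adjusted p of 0.05, in each comparison the 3 largest rises and falls and, where none passed, the 3 lowest p-values, the brightest member of each role, the complex IV isoforms, the dim members and 3 genes of each other list. The bounds of 1.2-fold and 1.5-fold were set after values were seen. Equal replicate numbers are not stated to be paired: of 18 pairs of same-numbered arrays, 7 had deviations correlated above 0.1 (range -0.17 to 0.38), so no pairing was assumed. The alternatives were 2 further normalizations, other filters, probe set means, other variance models, array weights, a replicate block, fits on the compared groups alone, each array left out, the 2 arrays with the lowest macrophage markers left out together and, added after seeing the data, the 3 with the lowest endothelial markers.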

Additional observations from a re-analysis of the deposited data

Results flagged for a closer look

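In 3 complex I genes a difference between groups ran in opposite directions without overlap of the livers (3.53% of the 85 tested genes, against 0.897% of all tested genes). For each the difference of the diet effects (knockout minus wild type) was tested by limma and did not pass. Ndufaf4, an assembly factor, was higher in every knockout high-fat liver than in any knockout low-fat liver. It was lower in every wild-type high-fat liver than in any wild-type low-fat liver. The difference of the diet effects was 0.38 on the log2 scale (adjusted p = 0.802). Its second probe set gave 0.22, made of 0.00 in knockouts and -0.21 in wild types. Ndufc2, an accessory subunit of the membrane arm, was higher in knockouts than in wild types on the high-fat diet (9.86, 9.87 and 9.96 against 9.84, 9.81 and 9.85) and lower on the low-fat diet (9.79, 9.62 and 9.76 against 9.97, 9.92 and 9.82), a difference of the diet effects of 0.24 (adjusted p = 0.827). Ndufv3, an accessory subunit of the NADH-oxidising module, was lower in knockouts than in wild types on the high-fat diet (11.41, 11.35 and 11.36 against 11.48, 11.47 and 11.43) and higher on the low-fat diet (11.49, 11.53 and 11.46 against 11.35, 11.41 and 11.44), a difference of -0.18 (adjusted p = 0.827). Over all 10258 tested genes 0 passed this test, and 5.7% had an unadjusted p below 0.05. With 3 livers in each group, no single liver was tested for standing apart.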

How the results depend on the processing

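Across both genotypes Ndufb3 kept its direction and its adjusted p below 0.05 in 23 of 24 alternatives (log2 change 0.22 to 0.27, adjusted p 0.0038 to 0.037); the exception, without the 3 arrays lowest in endothelial markers (chosen after seeing the data), gave 0.28 and 0.0816. The number of members past the threshold for diet, 1 as reported, was 2 after quantile normalization, 2 with 60% of genes left out as dim, 3 with array weights, 3 at an adjusted p of 0.10, 0 without those 3 arrays, and 1 to 2 with each array left out; the genes added were Ndufa7, Ndufa8 and Ndufb8. In knockout livers the number, 1 as reported, was 0 after quantile normalization, without a filter, without a variance trend, with the 2 compared groups alone, without knockout low-fat replicate 2 and knockout high-fat replicate 3 (lowest in macrophage markers), without the 3 arrays lowest in endothelial markers, and 0 to 1 with each array left out. With the replicate block it was also 0 in knockout livers (Ndufb3 0.27, adjusted p = 0.0554) and 1 over both genotypes. The block changed no other count of members. The median of the members, 0.04 for genotype on the low-fat diet, ranged over 0.0013 to 0.0463 with each array left out, and for the difference of diet effects, -0.03 as reported, over -0.0485 to -0.00028; wild-type low-fat replicate 3 gave the values nearest 0. On the high-fat diet the genotype median was 0.0159 without the 3 arrays, against -0.0111. For 47 values of named genes, 1127 of 1150 recomputed values kept direction and side of the threshold, 18 were no longer past it, 2 passed (Ndufa8 for diet), and 3 reversed. These were Ndufaf5 for genotype over both diets (-0.084 as reported), 0.048 without the pair and 0.043 without the 3 arrays, and Sdhaf1 for genotype on the high-fat diet (0.15 as reported), -0.068 without the 3 arrays. The causes were not tested.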
